A study of Homo sapiens with 18 samples.

Results

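The genes described here are 9 genes for transcriptional regulators of the neural plate border and the placodes, taken by symbol from the 37550 rows of the expression table: DLX3, DLX5, DLX6, MSX1, MSX2, GATA2, GATA3, SIX4 and EYA1. They were matched by symbol, and each matched 1 row. Their messenger RNA was measured in 18 poly-A RNA libraries of H1, an established wild-type human pluripotent stem cell line, in 9 groups of 2 replicates. They were undifferentiated cells at day 0 (hPSC), anterior and posterior neural ectoderm at day 2 (aNE and pNE), and cells of either origin at day 4 in a forebrain (T), midbrain (M) or hindbrain (H) medium, named aNE_T, aNE_M, aNE_H, pNE_T, pNE_M and pNE_H. All differentiated cells spent day 1 in a definitive ectoderm medium with the TGF-beta receptor inhibitor A8301 at 1 µM, the MEK inhibitor Trametinib at 250 nM, the WNT secretion inhibitor C59 at 1 µM and the BMP receptor inhibitor LDN193189 at 100 nM. On day 2 both origins received A8301 at 1 µM, LDN193189 at 100 nM and the survival compound Thiazovivin. The aNE medium also held C59 at 1 µM. The pNE medium lacked C59 and held XAV939, a tankyrase inhibitor, at 1 µM, the growth factor FGF2 at 20 ng/mL and TTNPB, which activates retinoic acid receptors, at 50 nM. The day-2 groups began from 37500 cells per cm2. The day-4 groups of anterior origin began from 75000 and those of posterior origin from 150000 cells per cm2, so that at day 4 origin and density cannot be told apart. Every day-4 group was also denser at plating than the day-2 groups and was in a regional medium. In changes from day 2 to day 4, time, density and medium therefore cannot be told apart. The day-3 forebrain medium held XAV939 at 1 µM, LDN193189 at 100 nM and FGF2 at 20 ng/mL, and the recipes of the other day-3 and day-4 media are not used here. All libraries came from 1 cell line. The p-values rest on the spread between replicates within groups, estimated over all 9 groups together, and not on a spread between cell lines.

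The neural plate border is the strip of ectoderm between the future brain and the future epidermis. Graded BMP signalling, together with WNT and FGF, places it there, and it gives rise to the neural crest and to the placodes that build the sense organs and cranial ganglia of the head. DLX and GATA factors mark its outer, non-neural side, MSX factors respond to BMP and mark the border and later the dorsal neural tube, and the SIX4 and EYA1 proteins belong to families that act together in the preplacodal ectoderm, EYA as a coactivator that does not bind DNA by itself.

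Values are TPM, a transcript abundance scaled for transcript length and to the same total in each library, so levels of different genes can be compared. TPM does not keep the number of reads, so the depth is unknown and no counting interval is given. A gene is called higher or lower where limma, fitted to log2(TPM + 1) of 17033 genes in all 18 libraries, gave a Benjamini-Hochberg adjusted p under 0.05 and a difference of at least 1 on that log2 scale. Differences on this scale understate the change of genes at low TPM. Between 13686 and 14679 genes reached 1 TPM in a library, and in all 18 libraries the most similar library across genes was the replicate of its group (Pearson's r 0.982 to 0.987). The pluripotency markers summed to 6405 to 6427 TPM in the hPSC libraries and to at most 2435 TPM in every other library, and the neural ectoderm markers to 964 to 994 TPM in aNE and 618 to 769 TPM in pNE, against 291 to 299 TPM in hPSC.

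The sequences shown are the promoters of MSX1 and MSX2, because these genes reached the highest TPM of the 9 and were called in the same direction in the midbrain and hindbrain media. They are credited to RefSeq on GRCh38.p14, the same hg38 build that the submitters' processing notes name, and both genes lie on the plus strand. MSX1 spans chr4:4859665-4863936, and the run below covers chr4:4859415-4859664. MSX2 spans chr5:174724582-174730896, and its run covers chr5:174724332-174724532, leaving out the bases next to the start that lie in an exon of another annotated transcript. Capitals mark the CCAAT box on either strand (CCAAT or ATTGG) and the homeodomain core TAATTA.
MSX1: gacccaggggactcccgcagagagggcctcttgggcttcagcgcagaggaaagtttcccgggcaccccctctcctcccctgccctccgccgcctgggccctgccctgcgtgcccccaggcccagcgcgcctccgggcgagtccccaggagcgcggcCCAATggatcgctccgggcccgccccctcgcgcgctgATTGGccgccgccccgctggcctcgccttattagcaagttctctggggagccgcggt
MSX2: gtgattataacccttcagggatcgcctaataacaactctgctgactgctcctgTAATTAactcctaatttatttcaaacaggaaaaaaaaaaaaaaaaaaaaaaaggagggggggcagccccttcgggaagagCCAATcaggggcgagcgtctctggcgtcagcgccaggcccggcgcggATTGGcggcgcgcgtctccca
Both promoters held CCAAT on the plus strand and again on the minus strand, beginning 94 and 57 bases before the start of MSX1 and 117 and 70 bases before that of MSX2. TAATTA was found in the MSX2 run, 197 bases before the start, and not in the MSX1 run. Over the 35116 RefSeq promoters, searched on both strands in the 250 bases before the start, 32% held CCAAT and 4.35% held TAATTA. The TCF/LEF core CTTTGAT, present in 2.26% of promoters, was in none of the entries for the 6 members in that table (DLX6, MSX1, MSX2, GATA2, GATA3 and SIX4). These matches describe letters in a short window and were not tested as binding sites.

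**Figure D1:**
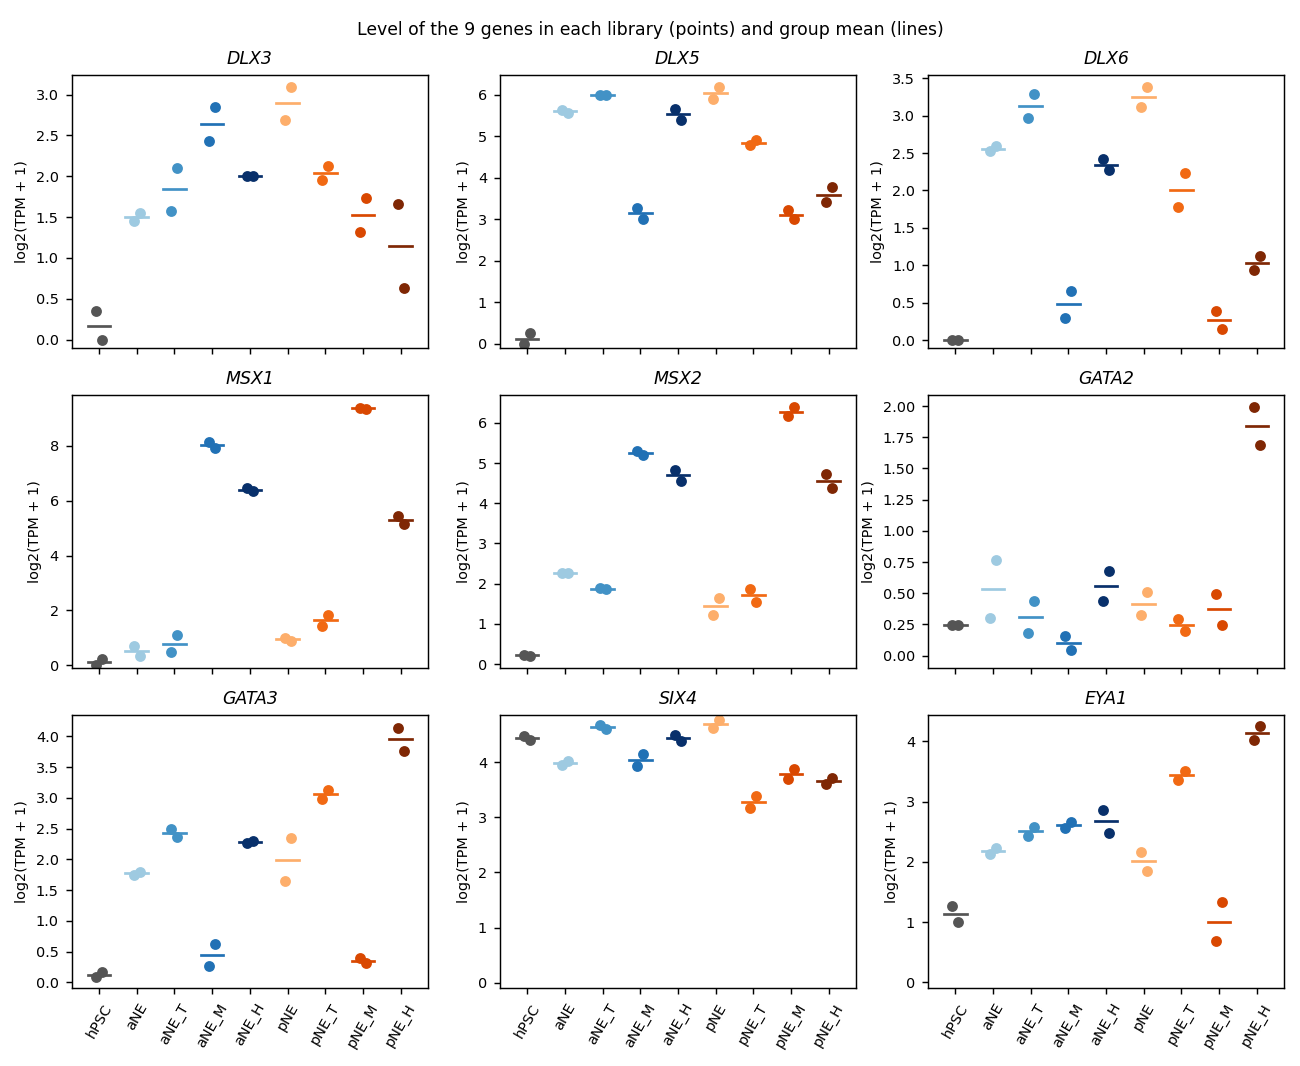
Level of each of the 9 genes, one panel per gene, as log2(TPM + 1) on the y axis against the 9 groups on the x axis. Each point is 1 library and each line is the mean of the 2 libraries of a group. MSX1 and MSX2 stand high in the midbrain and hindbrain media of both origins, DLX5 and DLX6 drop in the midbrain medium, and GATA2, GATA3 and EYA1 have their highest points in pNE_H.

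By day 2, before any regional medium, DLX5 was the most abundant of the 9 genes, and the DLX genes with MSX2 and GATA3 had risen from near 0 in both origins, while MSX1 and GATA2 stayed below 1 TPM in all 4 day-2 libraries. Against hPSC, 6 of the 9 genes were called higher in aNE and none lower, where 13.5% of all tested genes were called, 7.36% higher and 6.19% lower. In pNE, 5 of 9 were called higher and none lower, where 12.9% of all tested genes were called, 7.14% higher and 5.74% lower. Both comparisons use the same 2 hPSC libraries. In these bulk samples, fewer cells of a type and less RNA per cell cannot be told apart.

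DLX5, a distal-less homeobox factor of the anterior border and of the branchial arches, was listed at 0 and 0.185 TPM in hPSC and stood at 48.5 and 46.5 TPM in aNE and 58.9 and 71.5 TPM in pNE. The log2 difference from hPSC was 5.48 (SE 0.15, limma adjusted p = 3.4e-11) in aNE and 5.92 (SE 0.15, adjusted p = 1.7e-11) in pNE. All 4 day-2 libraries lay above both hPSC libraries. DLX6, its neighbour, was listed at 0 in both hPSC libraries and had 4.78 and 5.01 TPM in aNE and 7.62 and 9.40 TPM in pNE, differences of 2.56 (adjusted p = 6.0e-07) and 3.24 (adjusted p = 6.4e-08). DLX5 and DLX6 face each other on chromosome 7, DLX6 on the plus strand at chr7:97005553-97011040 and DLX5 on the minus strand at chr7:97020396-97024831, with 9355 bases between their ends. Per length, DLX6 was 9.86% to 10.8% of DLX5 in the aNE libraries and 12.9% to 13.1% in the pNE libraries.

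DLX3, a distal-less factor of surface ectoderm, had 0.271 and 0 TPM in hPSC, 1.74 and 1.93 TPM in aNE and 5.47 and 7.53 TPM in pNE. It was called higher in both origins than in hPSC (log2 1.33, adjusted p = 0.0039, and 2.72, adjusted p = 1.6e-05). It was also the 1 member called different between the day-2 origins, 3.54 times higher in pNE by mean TPM (log2 1.39, SE 0.31, adjusted p = 0.0087), where 3.85% of all tested genes were called and 2.37% were called higher. That call was lost with a pseudocount of 0.1 (adjusted p = 0.083), in a fit of the 4 compared libraries alone (0.072), without aNE replicate 1 (0.062) and without pNE replicate 2 (0.063).

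MSX2 had 0.166 and 0.159 TPM in hPSC, 3.83 and 3.82 TPM in aNE and 1.32 and 2.15 TPM in pNE. It was called higher than in hPSC in aNE (log2 2.05, adjusted p = 1.2e-06) and in pNE (log2 1.22, adjusted p = 0.00012). Its lower level in pNE than in aNE, by 0.83 on the log2 scale (adjusted p = 0.0061), was under the size that the call asks for, and it passed with a pseudocount of 0.1 (-1.13) and without pNE replicate 2 (-1.05). Without that library the rise from hPSC to pNE fell just short of the size threshold (0.9996). MSX1 had 0 and 0.174 TPM in hPSC, 0.631 and 0.271 TPM in aNE and 0.996 and 0.855 TPM in pNE, and was called in neither origin. With a pseudocount of 0.1, which gives low values more weight, its differences from hPSC of 1.65 in aNE and 2.63 in pNE were called.

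GATA3, a zinc finger factor of non-neural ectoderm, had 0.0636 and 0.118 TPM in hPSC, 2.35 and 2.48 TPM in aNE and 2.13 and 4.07 TPM in pNE. It was called higher than in hPSC in both (log2 1.65, adjusted p = 5.9e-05, and 1.87, adjusted p = 2.1e-05). GATA2, its close relative, had 0.184 and 0.188 TPM in hPSC, 0.234 and 0.697 TPM in aNE and 0.251 and 0.421 TPM in pNE, and neither difference was called.

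SIX4, a homeobox factor of the preplacodal ectoderm, stood apart from the other 8 genes before differentiation, at 21.3 and 20.2 TPM in hPSC, where no other exceeded 1.40 TPM. It had 14.4 and 15.2 TPM in aNE and 23.5 and 26.2 TPM in pNE, and no day-2 difference reached a log2 of 1. SIX4 was 1.68 times higher in pNE than in aNE by mean TPM (log2 0.71, SE 0.11, adjusted p = 0.00095, not called). EYA1, the coactivator, had 1.40 and 0.997 TPM in hPSC, 3.38 and 3.68 TPM in aNE and 3.50 and 2.62 TPM in pNE. Its rise was called in aNE (log2 1.05, adjusted p = 0.0016) and not in pNE (0.88, adjusted p = 0.0055), and the difference between the origins was -0.16 (adjusted p = 0.70). The aNE call lay at the size threshold and was lost under median-ratio scaling (0.98), quantile normalization (0.97) and without hPSC replicate 2 (0.91). The pNE rise was called with a pseudocount of 0.1 (1.29), without hPSC replicate 1 (1.02) and without pNE replicate 2 (1.04).

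Between day 2 and day 4, MSX1 and MSX2 had the largest changes of the 9 genes in the midbrain and hindbrain media of both origins, all of them rises, and neither was called in a forebrain medium. MSX1, a homeobox repressor and a known BMP target, reached 279.8 and 242.7 TPM in aNE_M, 87.0 and 79.8 TPM in aNE_H, 666 and 646 TPM in pNE_M and 42.7 and 34.2 TPM in pNE_H. In the forebrain medium it had 0.393 and 1.13 TPM in aNE_T and 1.72 and 2.55 TPM in pNE_T. The lowest of the 8 midbrain and hindbrain libraries was thus far above the highest forebrain library. The log2 change from the day-2 origin was 7.50 (SE 0.20, adjusted p = 2.6e-11) in aNE_M, 5.87 (adjusted p = 4.1e-10) in aNE_H, 8.42 (adjusted p = 9.5e-12) in pNE_M and 4.35 (adjusted p = 4.8e-09) in pNE_H. In the order of group means the ranges of pNE_M, aNE_M, aNE_H, pNE_H and pNE_T did not overlap with the next, while pNE overlapped with aNE_T and aNE_T with aNE.

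MSX2 followed the same order of media at lower levels. It had 38.5 and 36.0 TPM in aNE_M, 27.3 and 22.6 TPM in aNE_H, 71.2 and 82.7 TPM in pNE_M and 25.7 and 19.7 TPM in pNE_H, against 2.71 and 2.65 TPM in aNE_T and 2.65 and 1.92 TPM in pNE_T. By mean TPM it rose 9.75-fold in aNE_M (log2 2.99, adjusted p = 2.9e-08), 6.52-fold in aNE_H (2.42, adjusted p = 3.6e-07), 44.3-fold in pNE_M (4.84, adjusted p = 3.5e-10) and 13.0-fold in pNE_H (3.12, adjusted p = 2.4e-08). The aNE_H and pNE_H libraries overlapped. The mix of the 2 genes differed by medium: per length, MSX2 was 13.8% to 14.8% of MSX1 in aNE_M and 10.7% to 12.8% in pNE_M, 28.4% to 31.3% in aNE_H and 57.5% to 60.1% in pNE_H.

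Between the media, MSX1 was 3.13 times higher in aNE_M than in aNE_H (log2 difference, hindbrain minus midbrain, -1.63, adjusted p = 9.1e-05) and 17.1 times higher in pNE_M than in pNE_H (-4.07, adjusted p = 1.9e-08). MSX2 was 3.40 times higher in pNE_M than in pNE_H (-1.73, adjusted p = 1.3e-05), and its difference between aNE_H and aNE_M of -0.57 (adjusted p = 0.048) was not called. Between the origins, pNE_M stood 2.51 times above aNE_M for MSX1 (log2 1.33, adjusted p = 0.00045) and 2.06 times for MSX2 (1.02, adjusted p = 0.0010). In the hindbrain medium the order of MSX1 was turned, 2.17 times lower in pNE_H than in aNE_H (-1.10, adjusted p = 0.0015). Of these 3 calls, that of MSX1 in the midbrain medium was lost with a pseudocount of 0.1 (adjusted p = 0.078) and that of MSX2 fell under a log2 of 1 without aNE_M replicate 2 (0.98) or pNE_M replicate 2 (0.92). That of MSX1 in the hindbrain medium was lost with a pseudocount of 0.1 (0.116), with the 4 compared libraries alone (0.053) and, by size, without pNE_H replicate 2 (-0.95).

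Some markers of other cell types also rose in the midbrain and hindbrain media, those of neural crest in the forebrain medium too. Of the 9 neural crest markers, 5 were called higher and 1 lower in aNE_M against day 2. In aNE_H, pNE_M and pNE_H, 6, 7 and 3 were called higher and 0 lower. Of all tested genes, 4.34% were called higher in aNE_M, 3.24% in aNE_H, 4.87% in pNE_M and 4.47% in pNE_H. The markers summed to 187 to 205 TPM in aNE_M, 223 to 241 in aNE_H, 148 to 158 in pNE_M and 91.4 to 95.3 in pNE_H. At day 2 the sum was 25.1 to 26.9 TPM in aNE and 30.8 to 38.8 TPM in pNE. In the forebrain medium, where neither MSX gene was called, 4 of these markers were called higher and 0 lower in aNE_T, and 2 and 0 in pNE_T. Their sums there were 95.8 to 100.1 TPM and 41.2 to 44.6 TPM. PAX3, a border, crest and dorsal neural tube factor in that list, had a mean of 125.2 TPM in aNE_M (log2 6.36, SE 0.22, adjusted p = 2.6e-10 against aNE). Of the 9 mesoderm markers, 6 were tested. Of these, 3 were called higher in aNE_M and 2 in pNE_M against day 2, and the sum of the list was 97.3 to 117 TPM in aNE_M and 16.2 to 17.0 TPM in pNE_M against 1.52 to 2.28 TPM in aNE and 2.31 to 2.65 TPM in pNE. In aNE_M 6 of the 9 mesoderm genes were under 1 TPM in both libraries. The part of such cells in the MSX result was not tested.

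DLX5 and DLX6 went the other way in the midbrain medium. DLX5 had 62.7 and 62.4 TPM in aNE_T, 49.6 and 41.1 TPM in aNE_H and 8.66 and 7.09 TPM in aNE_M. From the posterior origin it had 26.6 and 29.1 TPM in pNE_T, 9.59 and 12.7 TPM in pNE_H and 8.26 and 7.09 TPM in pNE_M. The 2 midbrain groups overlapped and were the lowest of all differentiated groups. Against day 2, DLX5 fell 6.04-fold in aNE_M (log2 -2.46, adjusted p = 5.6e-08) and 8.50-fold in pNE_M (-2.93, adjusted p = 1.1e-08). It also fell in pNE_T (2.34-fold, -1.19, adjusted p = 5.7e-05) and pNE_H (5.86-fold, -2.45, adjusted p = 6.4e-08), whereas its change was 0.39 (adjusted p = 0.074) in aNE_T and -0.07 (adjusted p = 0.77) in aNE_H.

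DLX6 had 6.82 and 8.72 TPM in aNE_T, 0.234 and 0.578 TPM in aNE_M and 4.35 and 3.83 TPM in aNE_H, and 2.44 and 3.71 TPM in pNE_T, 0.315 and 0.115 TPM in pNE_M and 0.924 and 1.17 TPM in pNE_H. It was called lower than at day 2 in aNE_M (log2 -2.08, adjusted p = 3.8e-06), pNE_T (-1.23, adjusted p = 0.00041), pNE_M (-2.97, adjusted p = 1.3e-07) and pNE_H (-2.21, adjusted p = 2.2e-06), the same 4 groups as DLX5. The pNE_T call of DLX6 was lost with the 4 compared libraries alone (adjusted p = 0.059). DLX6 was 2.70% to 8.16% of DLX5 in aNE_M and 1.62% to 3.82% in pNE_M, below the 8.77% to 14% of the other differentiated libraries. The DLX6 values in the midbrain medium were all below 1 TPM, so these shares rest on low levels. The antisense gene DLX6-AS1 lies over DLX6 on the other strand without touching its exons, and whether the authors' quantification used the strand is not given in the sources used here.

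The neural ectoderm markers fell with the DLX pair in the midbrain medium but not in every group where the pair fell. Of 8 such markers, 6 were called lower in aNE_M and 4 in pNE_M against day 2, with sums of 301 to 306 and 321 to 347 TPM. In pNE_T, where DLX5 and DLX6 also fell, 2 were called higher and 2 lower, and the sum was 978 to 992 TPM, above that in pNE. In pNE_H, where DLX5 also fell, 4 were called lower and 1 higher (380 to 410.0 TPM). In aNE_H 5 were called lower (385 to 452 TPM), while DLX5 was not called there. The part of these cell states in the DLX result was not tested.

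**Figure D2:**
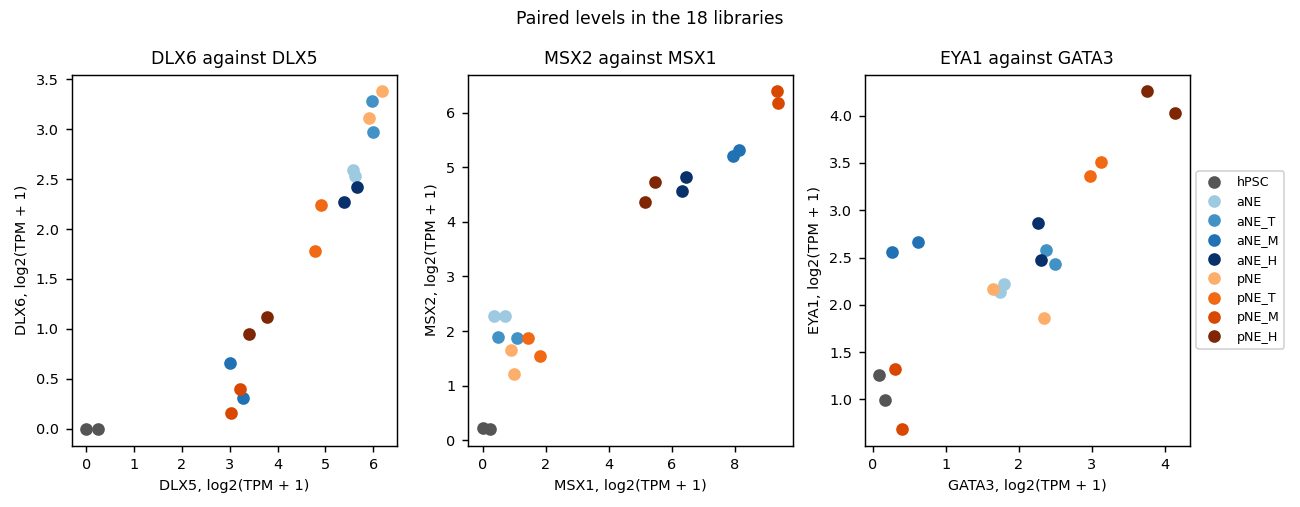
Levels of 3 pairs of genes in the 18 libraries, log2(TPM + 1) on both axes, 1 point per library and 1 colour per group. DLX6 rises with DLX5 and MSX2 with MSX1, and in the third panel the 2 aNE_M libraries lie apart, with EYA1 at 4.87 and 5.32 TPM and GATA3 at 0.200 and 0.538 TPM.

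DLX3 followed DLX5 and DLX6 only in part. It fell with them in pNE_M and pNE_H, and rose in aNE_M, where they fell. Its change in pNE_T, where they fell too, was not called (log2 -0.85, adjusted p = 0.0501). Over the 18 libraries, Pearson's r of log2(TPM + 1) was 0.641 with DLX5 and 0.507 with DLX6. DLX3 had 1.98 and 3.31 TPM in aNE_T, 4.42 and 6.18 TPM in aNE_M and 3.0 and 3.02 TPM in aNE_H. From the posterior origin it had 2.89 and 3.37 TPM in pNE_T, 1.49 and 2.31 TPM in pNE_M and 2.16 and 0.550 TPM in pNE_H. Against day 2 it was called higher in aNE_M (2.89-fold by mean TPM, log2 1.14, adjusted p = 0.012) and lower in pNE_M (3.42-fold, -1.37, adjusted p = 0.0036) and pNE_H (4.79-fold, -1.75, adjusted p = 0.00062). Its 2 pNE_H libraries lay far apart, and of 8 neighbouring pairs in the order of groups only 2 had ranges that did not overlap. The rise in aNE_M was lost with a pseudocount of 0.1 (adjusted p = 0.080), without aNE replicate 1 (0.063) and without aNE_M replicate 2 (0.091), and the fall in pNE_H with the 4 compared libraries alone (0.082). At day 4 DLX3 was 2.79 times lower in pNE_M than in aNE_M (-1.12, adjusted p = 0.024), a call that was lost under 5 alternatives (adjusted p 0.054 to 0.168).

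GATA3 rose in the hindbrain medium from the posterior origin and fell in the midbrain medium from both. It had 16.6 and 12.6 TPM in pNE_H, 6.90 and 7.74 TPM in pNE_T and 0.319 and 0.239 TPM in pNE_M. From the anterior origin it had 3.79 and 3.92 TPM in aNE_H, 4.63 and 4.17 TPM in aNE_T and 0.200 and 0.538 TPM in aNE_M. The pNE_H libraries were the highest of the 18 and pNE_T came next, without overlap. Against day 2 the called changes were a rise of 4.71-fold in pNE_H (log2 1.96, adjusted p = 1.3e-05) and 2.36-fold in pNE_T (1.06, adjusted p = 0.0022) and falls in aNE_M (-1.33, adjusted p = 0.00038) and pNE_M (-1.64, adjusted p = 6.3e-05). The pNE_T call was lost without pNE replicate 1 (0.71), without pNE_T replicate 2 (0.99) and with the 4 compared libraries alone (adjusted p = 0.109). Between origins GATA3 was 3.79 times higher in pNE_H than in aNE_H (1.67, adjusted p = 9.8e-05).

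GATA2 stayed under 1 TPM in 16 of 18 libraries and had 2.98 and 2.22 TPM in pNE_H. It passed the low-level filter through these 2 values alone, so its differences in pNE_H are a description with no test. The log2 differences were 1.42 against pNE, 1.28 against aNE_H, 1.59 against pNE_T and 1.47 against pNE_M. GATA2 was 17.7% to 17.9% of GATA3 in pNE_H. The antisense genes GATA2-AS1 and GATA3-AS1 overlap these genes without touching their exons.

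Among the other GATA genes, GATA4, a factor of endoderm and heart, also had its highest level in pNE_H, 6.59 and 5.63 TPM (log2 2.67, adjusted p = 3.1e-07 against pNE). The 4 endoderm markers, GATA4 among them, summed to 12.8 to 16.0 TPM in pNE_H, 9.21 to 11.5 TPM in pNE_T and at most 0.825 TPM in the anterior groups. All 4 were under 1 TPM in both libraries of hPSC, aNE, aNE_T, aNE_M and aNE_H. The 3 endoderm markers tested thus passed the low-level filter through posterior libraries alone. Their higher values in pNE_H than in aNE_H, all 3 past the thresholds, are a description with no test. Against pNE, 1 of the 3 was higher in pNE_H by the same thresholds. SOX17 had a mean of 1.17 TPM in pNE_H and at most 0.0191 TPM in the other day-4 groups. GATA2 and GATA3 are also factors of amnion and trophoblast. The 8 markers of these tissues, 7 of them tested, had 1 gene called higher and 0 lower in pNE_H against pNE, with sums of 72.0 to 75.6 TPM against 90.9 to 98.5 TPM. Against aNE_H, 3 were called higher and 1 lower in pNE_H, with sums of 34.8 to 37.1 TPM in aNE_H. The sums were highest in aNE_T (761 to 786 TPM), hPSC (470 to 550 TPM) and pNE_T (216 to 224 TPM), and lowest in aNE_M (13.6 to 22.4 TPM). Of these markers CGA had 18.1 and 17.9 TPM in pNE_H, while ISL1, VTCN1 and HAND1 were under 1 TPM there. The part of such cells in the GATA result was not tested.

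EYA1 was highest in the same group. It had 15.3 and 18.1 TPM in pNE_H, 9.27 and 10.4 TPM in pNE_T and 0.615 and 1.51 TPM in pNE_M, while aNE_T (4.41 and 4.99 TPM), aNE_M (4.87 and 5.32 TPM) and aNE_H (6.30 and 4.56 TPM) overlapped. The called changes from day 2 were those of the posterior origin: 5.45-fold up in pNE_H (log2 2.13, adjusted p = 5.3e-06), 3.21-fold up in pNE_T (1.42, adjusted p = 0.00021) and 2.88-fold down in pNE_M (-1.0, adjusted p = 0.0025). The pNE_M fall lay at the size threshold and was lost under 5 alternatives (log2 -0.69 to -1.0). EYA1 was 4.80 times lower in pNE_M than in aNE_M (-1.60, adjusted p = 0.00014) and 3.07 times higher in pNE_H than in aNE_H (1.47, adjusted p = 0.00024), and both calls were lost in a fit of the 4 compared libraries alone (adjusted p = 0.080 and 0.059). EYA1 lies on the minus strand at chr8:71197433-71548094, and 2 exons of AC015687.1 and 1 exon of AC022858.1, both on the other strand, overlap its exons, so reads of these genes may not be told apart from its own.

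SIX4 stayed between 7.95 and 26.2 TPM in all 18 libraries, and its highest group mean was 2.86 times its lowest. It had 24.4 and 23.2 TPM in aNE_T, 14.3 and 16.7 TPM in aNE_M and 21.3 and 19.9 TPM in aNE_H, and 7.95 and 9.46 TPM in pNE_T, 11.9 and 13.7 TPM in pNE_M and 11.1 and 12.1 TPM in pNE_H. All 6 day-4 libraries of posterior origin were below all 6 of anterior origin. Against day 2 it fell 2.86-fold in pNE_T (log2 -1.42, adjusted p = 9.5e-07) and 2.15-fold in pNE_H (-1.04, adjusted p = 1.2e-05), and 1.94-fold in pNE_M without reaching the called size (-0.91, adjusted p = 3.9e-05), which it did without pNE_M replicate 2 (-1.01). The pNE_H value lay under the size threshold with median-ratio scaling (-0.95), quantile normalization (-0.98), without pNE replicate 2 (-0.96) and without pNE_H replicate 1 (-0.99). Between origins the call was in the forebrain medium, 2.74 times lower in pNE_T than in aNE_T (-1.36, SE 0.11, adjusted p = 1.5e-06), against -0.26 (adjusted p = 0.16) between the midbrain groups and -0.78 (adjusted p = 0.00026) between the hindbrain groups.

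**Figure D3:**
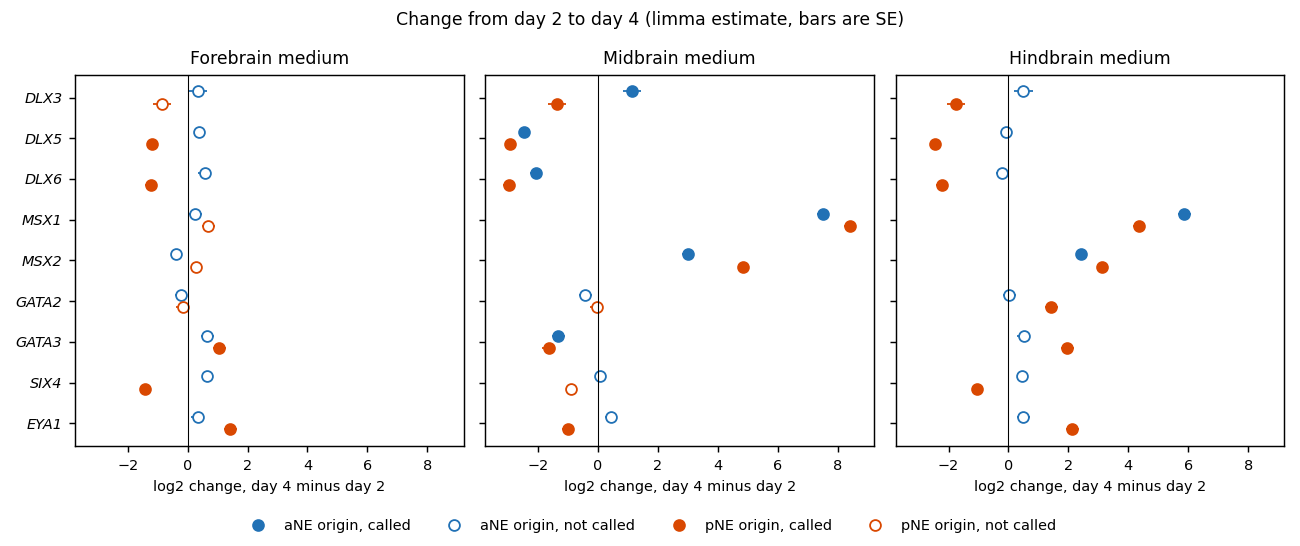
Change of each gene from day 2 to day 4 in the 3 media, as the limma log2 estimate on the x axis with its SE as bars and the 9 genes on the y axis. Blue marks the anterior and orange the posterior origin, filled where called. In the hindbrain panel all posterior points are filled, against 2 anterior ones. The filled GATA2 point is a description with no test, because GATA2 entered the fit through pNE_H alone.

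Counted over the 9 genes, the anterior origin changed in none in the forebrain medium (9.03% of all tested genes called) and in 6 in the midbrain medium (3 higher and 3 lower, with 12.0% of all genes called, 4.34% higher and 7.63% lower). In the hindbrain medium it changed in 2 genes (both higher, with 10.1% of all genes called and 3.24% called higher). At an unadjusted limma p under 0.05, 5 of the 9 genes differed between aNE_T and aNE, as did 40.1% of all tested genes. The posterior origin changed in 5 genes in the forebrain medium (2 higher and 3 lower, with 10.2% of all genes called, 4.68% higher and 5.56% lower). It changed in 7 genes in the midbrain medium (2 higher and 5 lower, with 12.7% called, 4.87% higher and 7.85% lower). In the hindbrain medium it changed in all 8 genes other than GATA2 (4 higher and 4 lower, with 12.3% called, 4.47% higher and 7.80% lower). GATA2 entered the fit through pNE_H alone and is left out of that count. The 3 comparisons of an origin share its 2 day-2 libraries.

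Between the media of the anterior origin, 5 genes were called between midbrain and forebrain (10.1% of all tested genes called), 2 between hindbrain and forebrain (6.60%) and 4 between hindbrain and midbrain (4.92%). For the posterior origin the counts were 6 (8.60%) and, leaving out GATA2, 3 (5.03%) and 4 (5.99%). The largest of these differences outside the MSX genes were those of GATA3 and EYA1 between pNE_H and pNE_M (log2 3.60, adjusted p = 1.2e-07, and 3.13, adjusted p = 3.3e-07) and of DLX5 between aNE_M and aNE_T (-2.85, adjusted p = 1.4e-08). GATA3 was also called lower in aNE_M than in aNE_T (-1.99, adjusted p = 1.3e-05) and higher in aNE_H than in aNE_M (1.84, adjusted p = 6.1e-05). DLX5 was called 5.76 times higher in aNE_H than in aNE_M (2.39, adjusted p = 2.2e-07).

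**Figure D4:**
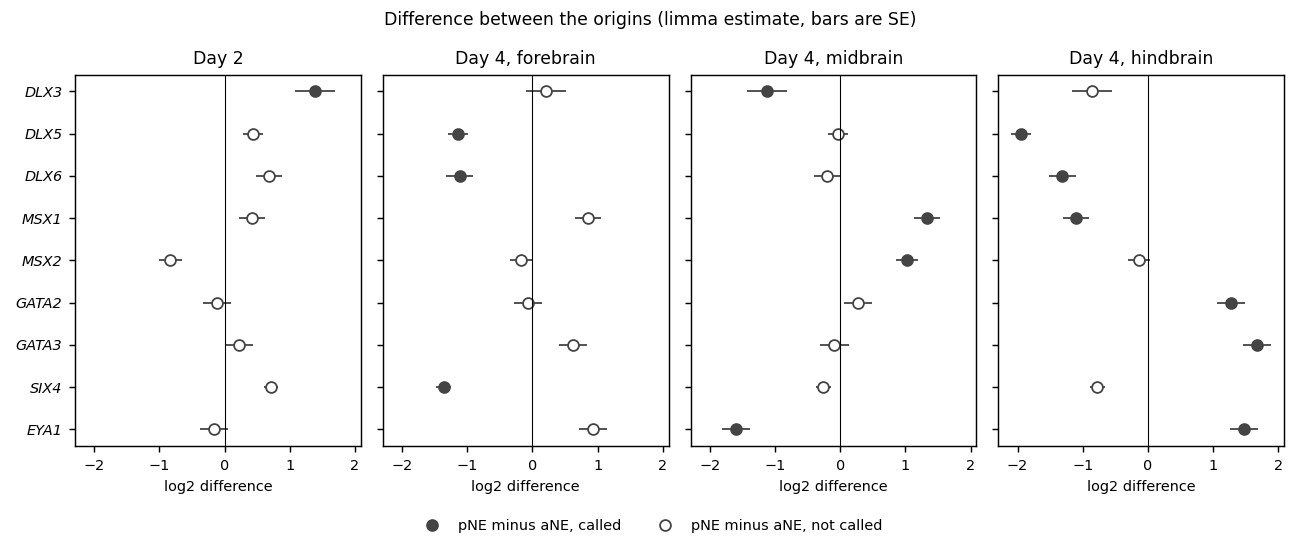
Difference between the origins, posterior minus anterior, at day 2 and in each day-4 medium, as the limma log2 estimate with its SE as bars. Filled points are called, and the panels hold 1, 3, 4 and 6 filled points in turn. GATA2 is among the last, and its point there is a description with no test.

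Between the origins, 1 gene was called at day 2 and 3 in the forebrain medium (all lower in pNE_T, with 7.77% of all tested genes called and 3.97% called lower). There were 4 calls in the midbrain medium (2 higher and 2 lower, with 5.74% of all genes called, 3.19% higher and 2.55% lower). The hindbrain medium gave 5 calls besides GATA2 (2 higher and 3 lower, with 6.83% called, 3.92% higher and 2.91% lower). DLX5 and DLX6 were lower from the posterior origin in the forebrain medium (2.25-fold, -1.14, adjusted p = 0.00011, and 2.53-fold, -1.12, adjusted p = 0.0013) and in the hindbrain medium (4.08-fold, -1.94, adjusted p = 9.7e-07, and 3.9-fold, -1.31, adjusted p = 0.00038). The DLX6 difference in the forebrain medium fell under the size threshold without aNE_T replicate 2 (-0.96) or pNE_T replicate 1 (-0.89). In the midbrain medium the differences of DLX5 and DLX6 were -0.03 (adjusted p = 0.95) and -0.20 (adjusted p = 0.58). In a fit of the 4 compared libraries alone, which has fewer residual degrees of freedom, the 14 origin calls of the 9 genes, GATA2 included, became 7. Whether the change from day 2 to day 4 in a medium differed by origin was tested as an interaction. It called 4 of 9 genes in the forebrain medium (7.14% of all tested genes), 3 for midbrain (7.02%) and, leaving out GATA2, 7 of 8 for hindbrain (7.83%). Whether the origin difference itself differed between media was tested in 3 contrasts chosen after the values were seen, with 4 calls for midbrain against forebrain (7.63%) and, leaving out GATA2, 2 for hindbrain against forebrain (5.37%) and 6 for hindbrain against midbrain (6.99%).

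Other genes of the border and the preplacodal ectoderm, a list of 18, did not move as 1 group. At day 2, 8 of 18 were called higher and none lower in aNE against hPSC, with a median log2 of 0.71 against 0.06 for all tested genes, and 6 higher and none lower in pNE (0.77 against 0.05). Against day 2, 6 were higher and 3 lower in aNE_M, 5 and 4 in aNE_H, 7 and 4 in pNE_M, 4 and 3 in pNE_H, 4 and 6 in aNE_T and 2 and 3 in pNE_T. ZIC1, a zinc finger factor of the border, had 148 and 123 TPM in pNE_M and 1.08 and 0.660 TPM in pNE_H (hindbrain minus midbrain -6.20, SE 0.30, adjusted p = 1.5e-08). PAX3 had 43.0 and 38.9 TPM in pNE_M, 54.2 and 50.3 TPM in aNE_H and 2.37 and 4.54 TPM in pNE_H. ZIC2 was the most abundant of the list, with a mean of 267 TPM in aNE.

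A few more genes were named after their values were seen. EYA4, a relative of EYA1, had 16.6 and 13.8 TPM in pNE_M, where EYA1 was lowest, and 2.47 and 2.88 TPM in pNE_H, where EYA1 was highest. TFAP2A, a defining factor of border and surface ectoderm, had at most 4.30 TPM in any library, and the epidermal factor TP63 had a mean of at most 0.234 TPM in any group.

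**Figure D5:**
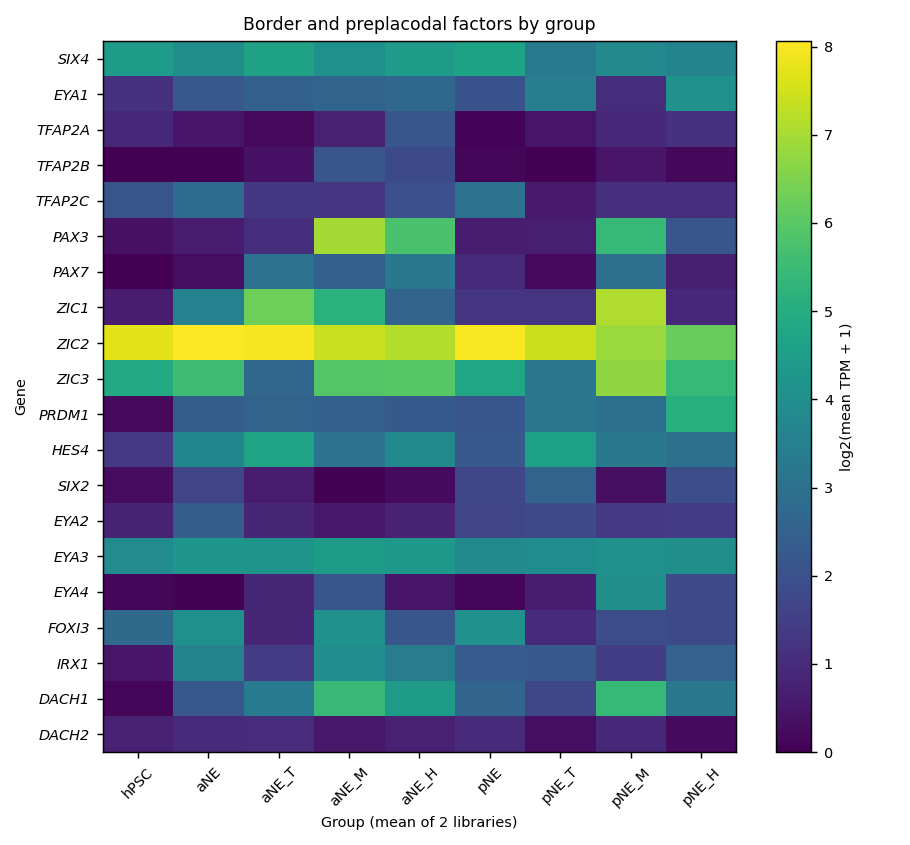
Group means of SIX4, EYA1 and the 18 other border and preplacodal factors as log2(mean TPM + 1), with genes as rows, the 9 groups as columns and the colour bar as scale. PAX3, ZIC1 and DACH1 are bright in the midbrain columns, and TFAP2A is at most 3.47 TPM in every column.

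Genes of the BMP pathway and its response, a list of 21, were called higher more often than lower after day 2 in the posterior origin: 9 higher and 3 lower in pNE_T, 10 and 0 in pNE_M and 10 and 3 in pNE_H, with median log2 changes of 0.71, 0.94 and 1.00 against -0.03, -0.06 and -0.08 for all tested genes. In the anterior origin the counts were 4 and 4 in aNE_T, 6 and 3 in aNE_M and 6 and 3 in aNE_H. Median log2 changes there were -0.07, -0.09 and 0.08, against 0, -0.02 and -0.04 for all tested genes. NOG, a secreted BMP antagonist, was called higher than at day 2 in all 6 day-4 groups, least in aNE_T (log2 1.43, adjusted p = 7.4e-05) and most in pNE_M, where it had 58.5 and 60.8 TPM in pNE_M against 0.151 and 0 TPM in pNE (5.82, SE 0.19, adjusted p = 1.2e-10). ID1, a direct BMP response gene, was highest in pNE_H, at 368 and 274 TPM. It had 58.0 and 45.6 TPM in aNE_M, where MSX1 had 279.8 and 242.7 TPM. BMP4, the ligand, had 209 and 210.3 TPM in aNE, where MSX1 was below 1 TPM (5.49 against hPSC, SE 0.20, adjusted p = 4.7e-10). The aNE cells had been grown with the BMP receptor inhibitor LDN193189 on both days. The part of BMP signalling in the MSX result was not tested.

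The surface ectoderm list of 10 genes, 9 of them tested, had 1 gene called higher and 5 lower in pNE_M and 1 and 6 in pNE_H against pNE, and 0 and 4 in aNE_M and 3 and 4 in aNE_H against aNE. CDH1, the epithelial cadherin, fell from 88.6 and 86.3 TPM in pNE to 1.20 and 0.759 TPM in pNE_M (-5.49, SE 0.23, adjusted p = 1.3e-09), and EPCAM fell by 4.17 on the log2 scale in pNE_H (SE 0.09, adjusted p = 1.1e-11). KRT8 and KRT18, the simple epithelial keratins of that list, had their highest group means in pNE_M, 994 and 1087 TPM. Of 20 factors of single placodes, 14 were tested. Against day 2, 4 of these were called higher and 1 lower in aNE_T, 6 and 3 in aNE_M, 3 and 3 in aNE_H, 1 and 3 in pNE_T, 3 and 5 in pNE_M and 3 and 5 in pNE_H. Between the origins, 1 was higher and 4 lower in pNE_T, 1 and 8 in pNE_M and 2 and 5 in pNE_H, with medians of -0.06, -1.31 and -0.47 against -0.05, -0.04 and -0.04 for all tested genes. SIX3, an anterior placode and forebrain factor, had a mean of 397 TPM in aNE_T, and SIX6 was lower in aNE_M than in aNE_T by a log2 difference of -7.27 (SE 0.17, adjusted p = 6.1e-12).

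Likeness of pattern was measured as Pearson's r of log2(TPM + 1) over the 18 libraries, which come from 9 groups and are not independent, among 2508 genes that reached a group mean of 5 TPM and a log2 range of 2. MSX1 and MSX2 were each most like LEF1, a transcription factor of WNT signalling (r = 0.974 and 0.976), and had r = 0.964 with each other. LEF1 had 125 and 152 TPM in aNE_M and 159 and 164 TPM in pNE_M against 2.37 to 6.31 TPM in the day-2 libraries. Among the 3 genes most like DLX5 were MED13L and FHOD3 (r = 0.949 and 0.924), and DLX6 most like SIX3, SLC2A12 and TNNT2 (0.938, 0.923 and 0.920). DLX5 with DLX6 gave r = 0.915. GATA3 was most like PTPRM, CREB5 and F2RL2 (0.935, 0.928 and 0.883) and EYA1 most like F2RL2, MEIS3 and GATA3 (0.937, 0.873 and 0.841). SIX4 was most like CACNG8, CACNG7 and FAM78A (0.912, 0.856 and 0.847), and DLX3 most like NQO1, FAS and MT2A (0.862, 0.845 and 0.839).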

How the data were processed

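The authors deposited 1 table of TPM values for the 18 libraries, with 37550 rows. Per the labels' protocols, RNA was selected with poly-T, primed with random hexamers and sequenced on a NovaSeq instrument. The submitters' processing notes name bcl2fastq, FastQC, Trim Galore, kallisto, deepTools and hg38, and the annotation, strand setting and versions are not given in the sources used here. Groups came from the labels. From the table, log2(TPM + 1) was fitted with limma 3.58.1 (R 4.3.3, variance trend) for 17033 genes that reached 1 TPM in at least 2 libraries, with 1 mean for each of 9 groups and 9 residual degrees of freedom. Tests were two-sided, with Benjamini-Hochberg adjustment over all tested genes. A fold is a ratio of mean TPM and is given where both groups reached 1 TPM. Counts and medians were made with Python 3.11.15, pandas 2.3.3 and numpy 2.4.6, and the fit was tested on simulated data. TPM keeps no read number, so precision rests on the 2 replicates.

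All 9 genes are described. From the other lists at most 4 genes each were named, by highest group mean or largest called change, and for each gene that reached 5 TPM the 3 genes most like it. A few genes of these lists are not reported here. Other genes are named as chosen after their values were seen: EYA4, TFAP2A, TP63, KRT8, CGA, SOX17 and the marker genes given beside results. The members and lists were chosen with earlier results of these data known. Alternatives changed the pseudocount (0.1), the filter (5 TPM, or none) or the scaling (quantile normalization, or median ratios), or used the compared libraries alone, a replicate block, no variance trend, calls by adjusted p alone and leaving out each library.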

Additional observations from a re-analysis of the deposited data

Results flagged for a closer look

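The values here are tests of whether a difference itself differed between origins or media, on the log2(TPM + 1) scale with limma and Benjamini-Hochberg adjustment over all tested genes. The first kind is the change from day 2 to day 4 in the posterior origin minus that in the anterior origin. All 3 such tests use the same day-2 libraries, and the plating density differed between the origins at day 4.

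In the hindbrain medium 7 of the 8 genes other than GATA2 had a called difference in response, all but MSX2. The change was lower from the posterior origin for DLX5 (-2.38, SE 0.22, adjusted p = 6.90e-06), DLX6 (-2.0, SE 0.29, adjusted p = 0.000338) and SIX4 (-1.49, SE 0.16, adjusted p = 3.32e-05). DLX3 differed in the same direction (-2.25, SE 0.44, adjusted p = 0.00317). MSX1 rose in both origins, and less in the posterior one (-1.52, SE 0.29, adjusted p = 0.00264). EYA1 (1.63, SE 0.30, adjusted p = 0.00228) and GATA3 (1.45, SE 0.31, adjusted p = 0.00585) differed the other way. With a pseudocount of 0.1 the calls of MSX1 (adjusted p = 0.0528) and GATA3 (0.0626) were lost, and that of GATA3 also with the compared libraries alone (0.0577). GATA2 entered the fit only through its pNE_H libraries, so its values here are descriptions: the difference was 1.40 (SE 0.30).

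In the forebrain medium the called differences were those of SIX4 (-2.07, SE 0.16, adjusted p = 1.78e-06), DLX6 (-1.80, SE 0.29, adjusted p = 0.000832), DLX5 (-1.58, SE 0.22, adjusted p = 0.000249) and EYA1 (1.09, SE 0.30, adjusted p = 0.0315). The SIX4 change was 0.65 from aNE to aNE_T, which was not called, and -1.42 from pNE to pNE_T. The EYA1 call was lost under 9 alternatives. In the midbrain medium they were those of DLX3 (-2.51, SE 0.44, adjusted p = 0.00162), MSX2 (1.86, SE 0.25, adjusted p = 0.000195) and EYA1 (-1.43, SE 0.30, adjusted p = 0.00637), the last lost with the compared libraries alone (adjusted p = 0.0539).

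The second kind compares the posterior minus anterior difference between 2 media at day 4, and was chosen after the values were seen. Hindbrain against midbrain gave 6 calls besides GATA2. These were EYA1 (3.07, SE 0.30, adjusted p = 1.92e-05), GATA3 (1.76, SE 0.31, adjusted p = 0.00187), MSX1 (-2.43, SE 0.29, adjusted p = 8.50e-05), MSX2 (-1.16, SE 0.25, adjusted p = 0.00665), DLX5 (-1.91, SE 0.22, adjusted p = 5.85e-05) and DLX6 (-1.11, SE 0.29, adjusted p = 0.0207). The origin difference of EYA1 was -1.60 in the midbrain and 1.47 in the hindbrain medium, and that of MSX1 was 1.33 and -1.10. The DLX6 call was lost with a pseudocount of 0.1 (adjusted p = 0.204), with the compared libraries alone (0.0516) and without replicate 1 of aNE_M, aNE_H, pNE_M or pNE_H (0.0671 to 0.0782). The MSX2 call was lost by size without pNE_H replicate 2 (-0.98).

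Hindbrain against forebrain gave MSX1 (-1.96, SE 0.29, adjusted p = 0.00069) and GATA3 (1.05, SE 0.31, adjusted p = 0.0457). The GATA3 call was lost under 11 alternatives, among them leaving out any of the compared libraries except pNE_H replicate 2. Midbrain against forebrain gave EYA1 (-2.52, SE 0.30, adjusted p = 7.71e-05), MSX2 (1.20, SE 0.25, adjusted p = 0.00553), DLX5 (1.11, SE 0.22, adjusted p = 0.00378) and SIX4 (1.10, SE 0.16, adjusted p = 0.000445). The DLX5 call was lost with a pseudocount of 0.1 (adjusted p = 0.175) and by size without aNE_M replicate 2 (0.98), and the SIX4 call by size without aNE_M replicate 1 or pNE_T replicate 1 (both 0.99). For GATA2 the origin difference was larger by 1.34 (SE 0.30) in the hindbrain than in the forebrain medium and by 1.01 (SE 0.30) than in the midbrain medium.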

How the results depend on the processing

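Of 216 member values tested, 109 were called. Of these, 79 stayed called under every alternative that gave a value and 30 lost the call in at least 1, while 18 uncalled values were called in at least 1. Calls by adjusted p alone are left out of the 18. That alternative also takes in values under the size threshold, such as SIX4 between pNE and aNE (log2 0.71, limma adjusted p = 0.00095). No called value changed sign. In a fit of the compared libraries alone, which has fewer residual degrees of freedom, the 14 calls between origins became 7, while the calls over all genes went from 655 to 355 at day 2, 1323 to 1167 in the forebrain, 978 to 684 in the midbrain and 1164 to 717 in the hindbrain medium. With a pseudocount of 0.1 the 14 calls of the origin difference between media became 9, and the cause was not tested. Over all genes the calls went from 1300 to 1249 (midbrain against forebrain), 915 to 878 (hindbrain against forebrain) and 1191 to 1197 (hindbrain against midbrain). Leaving out each library in turn gave 10 to 12 calls for day 2 against hPSC, 12 to 15 between origins, 27 to 30 for day 4 against day 2, 26 to 28 between media, 14 to 17 for the response by origin and 11 to 14 for the origin difference between media. These counts include GATA2, which entered the fit through pNE_H alone and had no value with the 5 TPM filter. Same-numbered replicates did not deviate together (36 group pairs, r -0.0896 to 0.0762, 0 over 0.1). With the replicate number as a block, the counts were 11, 14, 29, 26 and 15, as without it, and 12 in place of 14 for the origin difference between media. The call of GATA3 for hindbrain against forebrain was lost there (adjusted p = 0.0537). The other value that dropped out of the count was that of GATA2 for hindbrain against midbrain, which is a description with no test. Depth is unknown, so levels under 1 TPM set no limit on expression.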

Other observations

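Dorsal neural tube genes, a list of 12 of which 8 were tested, had 4 genes called higher and 1 lower in aNE_M against aNE, and 4 and 1 in pNE_M against pNE, with medians of 1.05 and 0.78 on the log2 scale against -0.02 and -0.06 for all tested genes. In the hindbrain medium the counts were 2 and 3 in aNE_H and 2 and 1 in pNE_H, and in the forebrain medium 3 and 1 in aNE_T and 1 and 1 in pNE_T. Of these genes PAX3 and ZIC1 also stand in the border list. Of a list of 11 relatives and antisense genes of the DLX, MSX and GATA genes, 8 matched a row and 4 were tested. The antisense genes DLX6-AS1, GATA2-AS1 and GATA3-AS1 matched no row. EVX1, a homeobox gene, had a mean of 5.47 TPM in aNE_M and was called higher there than in aNE_T (log2 2.64, SE 0.18, limma adjusted p = 1.5e-07). FOXD3, a neural crest and pluripotency factor, fell by 4.76 on the log2 scale from hPSC to aNE (SE 0.22, adjusted p = 4.4e-09), and NGFR, a crest surface receptor, had its highest mean in pNE, at 128.5 TPM.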
